A study of Mus musculus with 8 samples.

Results

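The genes described here encode integrin chains and other surface molecules by which blood cells hold on to each other and to the marrow matrix. They are 36 named genes, chosen by symbol: 15 integrin α chains, 5 integrin β chains, 10 proteins with immunoglobulin or cadherin domains, 3 tetraspanins, and the selectin ligand Selplg, the hyaluronan receptor Cd44 and endoglin (Eng). All 36 were found among the 19938 genes that have a row of their own on the array, and a gene with several rows was read from its brightest one. RNA came from bone marrow cells of 7-week-old mice on a backcrossed C57BL6 background, sorted as LSK cells (the Lineage-negative, Sca-1-positive, Kit-positive fraction with stem cells and multipotent progenitors) or as GMP cells (granulocyte and macrophage progenitors). KO mice had the genotype Vav1-iCre x Cbfb(F/F), and Het mice Vav1-iCre x Cbfb(F/+). Every animal carried the Cre, which is driven by a promoter active across blood cells, and every Het animal carried a floxed allele; no wild type was measured, so each effect is that of KO against Het. Each of the 4 groups (KO LSK, Het LSK, KO GMP, Het GMP) held 2 arrays from 2 mice of the genotype. The labels do not say which LSK and GMP arrays come from the same mouse. The samples are bulk RNA, in which fewer cells of a type and less RNA per cell cannot be told apart.

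An integrin is a pair of an α and a β chain that spans the membrane, binds matrix or a partner on another cell outside, and is linked to actin inside through talin and kindlin. Integrins with the α4 chain hold progenitors to VCAM-1 on marrow stroma, those with the β2 chain (CD18) are the leukocyte integrins that bind ICAMs, and those with α1, α2 or α6 bind collagens or laminins. Tetraspanins organise integrins in the membrane, and selectin ligands start the rolling of cells on endothelium. Cbfb is the partner subunit of the RUNX transcription factors, and the study asked what its loss changes in these cells.

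Values are log2 expression values made by the authors with RMA, given for array 1 and then array 2 of a group (the replicate numbers of the labels), or as mean ± SD (n = 2). RMA gives no detection call and the scale has no true zero. For orientation, the median over tested rows of the mean over 8 arrays was 5.02, called the row median here. A difference is on the log2 scale with limma's standard error (SE), and a gene is called, or said to have risen or fallen, at a Benjamini-Hochberg adjusted p under 0.05 over all 21789 rows tested. Correlations between arrays were 0.990 to 0.995 within groups and 0.955 to 0.983 across them. Cbfb itself stood at 6.96 ± 0.04 in KO LSK and 7.56 ± 0.01 in Het LSK (difference -0.60, adjusted p = 0.0557), and at 6.72 ± 0.34 in KO GMP and 7.59 ± 0.09 in Het GMP (difference -0.86, adjusted p = 0.013). The GMP difference no longer passed without Het GMP array 1 (0.0689) or 2 (0.104), without KO GMP array 1 (0.0755) or with all rows tested (0.0632), and the LSK difference passed without either KO GMP array (0.0252). Probes outside the floxed exons, which the labels do not name, check nothing. Of the defining granule genes of GMP, Elane stood at 11.73 in KO GMP and 11.94 in Het GMP, against 7.12 in KO LSK and 7.25 in Het LSK. Mpo averaged 10.26 in KO LSK and 11.45 in Het LSK, and Fcgr3 6.30 and 5.23. Among 8 GMP markers, KO against Het gave 1 higher and 1 lower call in LSK, and 0 calls in GMP. Of the LSK markers, Kit and Cd34 stood at 9.20 or higher in all 4 groups. Procr (4.45 in KO LSK, 6.72 in Het LSK) and Mecom (4.28, 6.75) were below the row median in KO LSK. Flt3 also averaged lower there (6.83, against 10.24 in Het LSK), while Slamf1 averaged higher (7.30, against 4.90 in Het LSK). Ly6a was not analysed here. Over the LSK marker list, 1 of 7 genes rose and 4 fell in KO LSK.

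Loss of Cbfb moved adhesion genes in both directions. In LSK, 3 of the 36 members rose and 8 fell, and in GMP 7 rose and 8 fell. Over all rows tested, 7.73% were called in LSK (3.02% higher, 4.71% lower) and 6.02% in GMP (3.45% higher, 2.57% lower). The direction of this background depended on the scaling: in LSK 657 rows were higher and 1027 lower, against 903 and 821 once each array's median was subtracted, and in GMP 752 and 560, against 697 and 696. With that scaling the members called were 12 in LSK (4 higher, 8 lower) and 16 in GMP (7 higher, 9 lower). The median difference of the members was -0.07 in LSK and 0.03 in GMP, beside 0.01 and -0.02 over all rows. The members called in the same direction in both cell types numbered 8, and 0 were called in opposite directions; over all genes those shares were 2.77% and 0.125%. Another 3 were called in LSK and not in GMP, 7 in GMP and not in LSK, and 18 in neither. No share over all genes was computed for these last counts. Across the 36 members the GMP difference correlated with the LSK difference at r = 0.63, and across all genes at r = 0.52. This is a description of genes, which are not independent. The LSK and GMP arrays of a genotype also came from 2 mice, so agreement between the cell types is not independent either. All these calls had both KO arrays on the same side of both Het arrays. With 2 arrays a group a call nearly requires this, and in LSK the uncalled Itga3 and Itga5 showed it too. Such separation is given here as a description and adds no support to a call. With each of the 8 arrays left out in turn, 7 of the 11 LSK calls and 9 of the 15 GMP calls held throughout, and the others are named with their genes.

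**Figure D1:**
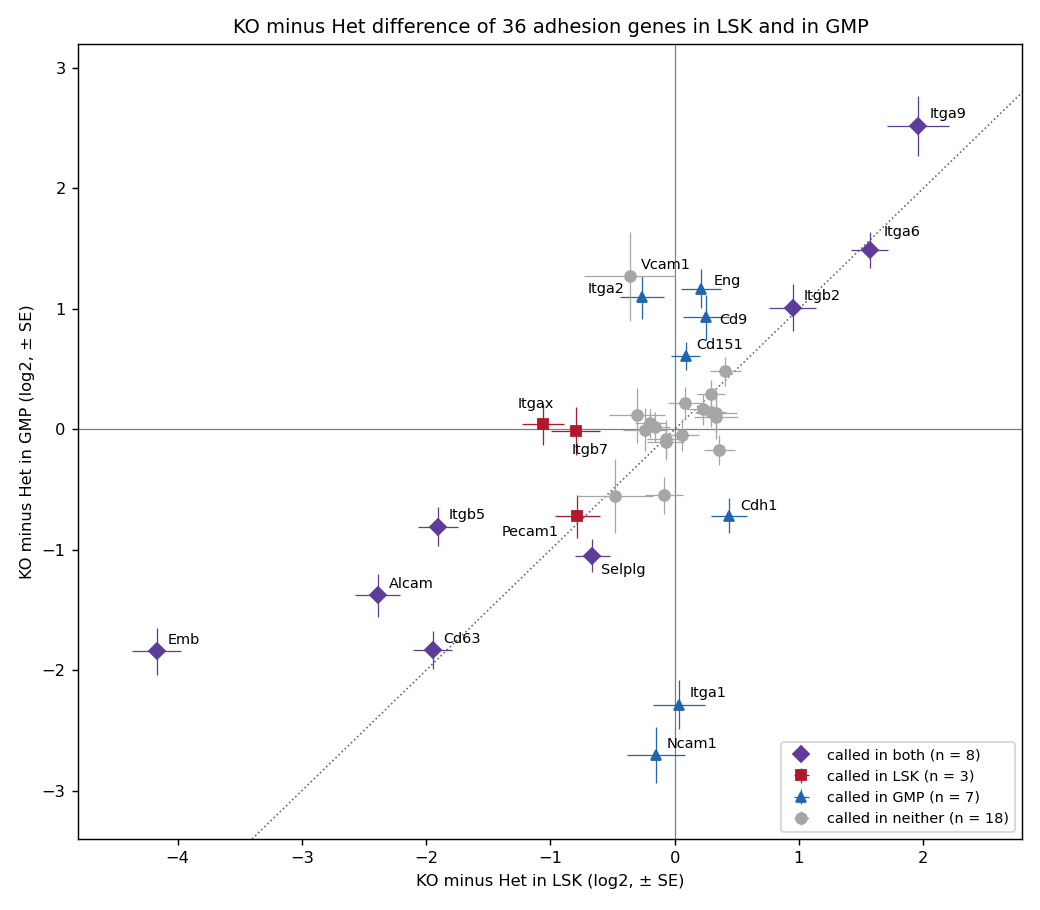
KO minus Het difference (log2, ± SE) of the 36 genes in LSK on the x axis and in GMP on the y axis, with the dotted line marking equal differences and the symbols showing where a gene was called. The 8 genes called in both cell types lie in the upper right and lower left, while Itga1 and Ncam1 lie far below 0 in GMP and near 0 in LSK.

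Among the α chains, Itga6 and Itga9 rose in both cell types. Itga6, the laminin-binding α6 chain (CD49f), stood at 9.17 and 8.92 in KO LSK, against 7.63 and 7.32 in Het LSK. In GMP it stood at 8.76 and 8.64 in KO, against 7.18 and 7.24 in Het. All 4 KO arrays lay above all 4 Het arrays, whatever the cell type, with 2 mice per genotype. The rise was 1.57 in LSK (SE 0.15, adjusted p = 0.000259, 2.97-fold) and 1.49 in GMP (SE 0.15, adjusted p = 0.000459, 2.81-fold), and both calls held with each array left out. Itga9, whose α9 chain pairs with β1 and binds tenascin, osteopontin and VCAM-1, stood at 7.79 and 7.38 in KO LSK, against 5.30 and 5.94 in Het LSK. It stood at 6.57 and 6.16 in KO GMP, against 4.04 and 3.64 in Het GMP. The groups did not overlap, and the Het GMP arrays were below the row median. Itga9 rose by 1.96 in LSK (SE 0.25, adjusted p = 0.00147) and by 2.52 in GMP (SE 0.25, adjusted p = 0.00046), again with no array deciding the call.

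The collagen-binding chains Itga1 and Itga2 moved in opposite directions in GMP. Itga1 stood at 2.85 and 2.97 in KO GMP, against 4.85 and 5.53 in Het GMP, and between 2.47 and 2.70 on the 4 LSK arrays. The Het GMP arrays were the highest of the 8, one on each side of the row median, and Itga1 fell by 2.28 in KO GMP (SE 0.21, adjusted p = 0.000279). In LSK the difference was 0.04 (SE 0.21, adjusted p = 0.955). Itga2, the α2 chain of the platelet collagen receptor, stood at 5.34 and 5.60 in KO GMP, against 4.11 and 4.64 in Het GMP. It rose by 1.10 in GMP (SE 0.18, adjusted p = 0.00666), a call lost without KO GMP array 2 (0.97, adjusted p = 0.069). In LSK Itga2 stood at 4.93 and 5.06 in KO and 5.29 and 5.23 in Het, a difference of -0.26 (SE 0.18, adjusted p = 0.488).

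Itgax, the CD11c chain of dendritic cells and some macrophages, fell in KO LSK. It stood at 2.67 and 2.89 in KO LSK, against 3.67 and 4.01 in Het LSK, a difference of -1.06 (SE 0.17, adjusted p = 0.00497). In GMP it stood at 2.90 and 2.68 in KO and 2.61 and 2.90 in Het, with overlapping groups (0.04, adjusted p = 0.942). All 8 of its values were below the row median.

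The other 10 α chains were not called in KO against Het. Itga4, the α4 chain by which progenitors bind VCAM-1 and fibronectin, came nearest. It stood at 9.82 and 9.68 in KO LSK, against 9.29 and 9.40 in Het LSK, and at 9.39 and 9.28 in KO GMP, against 8.79 and 8.91 in Het GMP. Both KO arrays were higher in each cell type, with differences of 0.41 in LSK (SE 0.12, adjusted p = 0.0868) and 0.48 in GMP (SE 0.12, adjusted p = 0.0544). With a mean-dependent variance prior both passed (adjusted p = 0.0247 in LSK and 0.0118 in GMP). Itgal, the αL chain of LFA-1, stood at 6.80 ± 0.10 in KO GMP and 7.34 ± 0.10 in Het GMP (difference -0.55, SE 0.15, adjusted p = 0.0831). Itgam, the αM chain of Mac-1, was variable in KO LSK (6.60 and 5.59, against 6.78 and 6.36 in Het LSK); its difference was -0.48 (SE 0.30, adjusted p = 0.457), and -0.99 without KO LSK array 1 (adjusted p = 0.0422). The fibronectin receptor chain Itga5 and the vitronectin receptor chain Itgav, with levels of 6.65 to 7.06 over the group means, differed by 0.29 and -0.16 in LSK and by 0.15 and 0.02 in GMP. Itga3, Itga7, Itga8, Itga10 and Itgae stood under the row median on all 8 arrays.

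The β chains also split. Itgb2, the CD18 chain shared by LFA-1, Mac-1 and the CD11c integrin, stood at 8.28 and 7.68 in KO LSK, against 6.95 and 7.11 in Het LSK. In GMP it stood at 8.69 and 8.65 in KO, against 7.53 and 7.78 in Het. The KO arrays were higher in both cell types, and Itgb2 rose by 0.95 in LSK (SE 0.19, adjusted p = 0.0171) and by 1.01 in GMP (SE 0.19, adjusted p = 0.0149). The rise in LSK no longer passed without Het LSK array 1 (adjusted p = 0.112) or 2 (0.0638) or with only the LSK arrays fitted (0.0584). That in GMP no longer passed without Het GMP array 1 (0.134) or 2 (0.0522), or without KO GMP array 1 (0.0908) or 2 (0.089). With all rows tested, neither passed (0.0703 and 0.0765). Its α partners on the list did not rise: Itgal, Itgam and Itgax differed by -0.08, -0.48 and -1.06 in LSK and by -0.55, -0.55 and 0.04 in GMP. Of 7 mature neutrophil genes, cells rich in CD18, 2 rose and 0 fell in each cell type, namely Cxcr2 (9.72 in KO LSK, 5.41 in Het LSK; 8.59 in KO GMP, 6.22 in Het GMP) and Retnlg (8.63 in KO LSK, 6.21 in Het LSK; 8.84 in KO GMP, 6.38 in Het GMP). Ltf, Camp and Ngp averaged lower in KO in both cell types and were not called. The list's mean level lay between 7.95 and 8.57 on the KO LSK arrays and between 6.93 and 8.30 on the Het LSK arrays, and between 8.54 and 8.84 in KO GMP and 8.40 and 9.09 in Het GMP. The part of such cells in the Itgb2 result was not tested.

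Itgb5, which pairs with αv in a vitronectin receptor, fell in both cell types. It stood at 3.88 and 3.99 in KO LSK, against 5.62 and 6.06 in Het LSK, and at 4.02 and 3.79 in KO GMP, against 4.70 and 4.72 in Het GMP. The 4 KO arrays lay together under the row median, and the Het LSK arrays stood above it. Itgb5 fell by 1.91 (SE 0.16, adjusted p = 0.000158) in LSK, and the GMP difference was -0.81 (SE 0.16, adjusted p = 0.0194). In GMP it no longer passed without Het GMP array 1 (adjusted p = 0.12) or 2 (0.116) or KO GMP array 2 (0.16), and with all rows tested (0.0824). Its α partner Itgav was not called in either cell type.

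Itgb7, the partner of α4 and αE in gut-homing lymphocytes, stood at 5.51 and 5.0 in KO LSK, against 6.03 and 6.07 in Het LSK. The groups did not overlap and it fell by 0.80 (SE 0.20, adjusted p = 0.0414), a call near the threshold. It was lost without Het LSK array 1 (adjusted p = 0.148) or 2 (0.178), KO LSK array 2 (-0.54, 0.157) or either Het GMP array (0.0644), with all rows tested (0.126) and with only the LSK arrays fitted (0.074). In GMP the difference was -0.01 (SE 0.20). Itgb1, the common partner of most α chains listed, stood at 8.89 ± 0.06 in KO LSK and 8.59 ± 0.07 in Het LSK, and at 8.79 ± 0.01 in KO GMP and 8.50 ± 0.02 in Het GMP. Its KO arrays were higher in both cell types, with differences of 0.29 (SE 0.11, adjusted p = 0.187) and 0.30 (SE 0.11, adjusted p = 0.207) that did not pass. Itgb8, an αv partner known for activating latent TGF-β, lay between 2.76 and 3.42 on the 8 arrays and was not called.

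**Figure D2:**
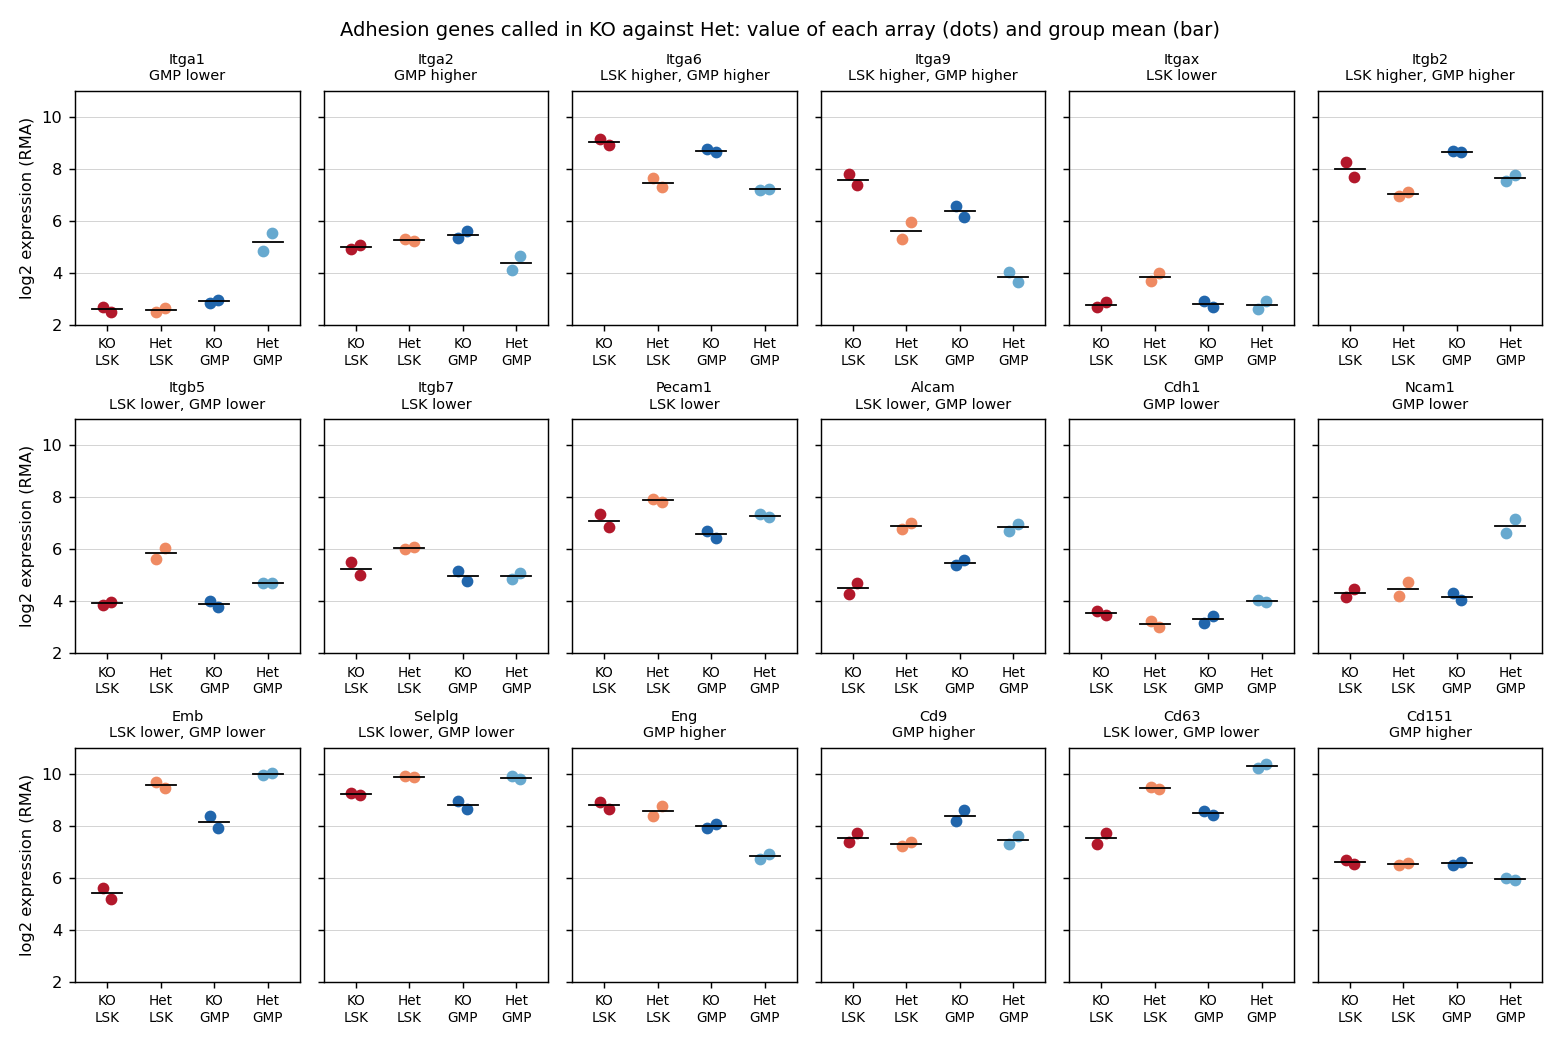
Log2 expression (RMA, y axis) of the 18 genes called in KO against Het in at least 1 cell type, with a dot per array and a bar at the group mean for KO LSK, Het LSK, KO GMP and Het GMP; the line under each symbol gives the direction of each call. Emb, Alcam, Itgb5 and Cd63 are lower and Itga6 and Itga9 higher in KO in both cell types, while Itga1 and Ncam1 are highest in Het GMP.

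Of the 10 immunoglobulin and cadherin proteins, 3 fell in LSK and 4 in GMP, and 0 rose in either. Emb (embigin), a glycoprotein that accompanies monocarboxylate transporters to the membrane, had the largest change of the 36. It stood at 5.62 and 5.18 in KO LSK, against 9.69 and 9.45 in Het LSK, and at 8.36 and 7.90 in KO GMP, against 9.94 and 10.01 in Het GMP. KO arrays were lower in both cell types, and the KO LSK arrays were lowest. Emb fell by 4.17 (SE 0.19, adjusted p = 2.13e-05, 18-fold lower) in LSK, and the GMP difference was -1.84 (SE 0.19, adjusted p = 0.000645, 3.58-fold lower). Alcam (CD166), which binds CD6 on lymphocytes and also itself, stood at 4.28 and 4.71 in KO LSK, against 6.76 and 7.01 in Het LSK. In GMP it stood at 5.38 and 5.57 in KO, against 6.72 and 6.99 in Het. The groups were apart in both cell types: Alcam fell by 2.39 (SE 0.18, adjusted p = 8.22e-05) in LSK, and the GMP difference was -1.38 (SE 0.18, adjusted p = 0.00193). These 4 calls held with each array left out.

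The promoters of Emb, Alcam and Itgb5 are shown because they are the genes that moved in the same direction in both cell types and whose window, from the table of RefSeq promoters, spans the annotated gene start; Itgax is added, after its sequence was seen, as the called gene whose window holds a RUNX motif. Each window runs from 250 bases before to 50 bases after an annotated transcript start in GRCm38.p6, 5′ to 3′ on the gene's strand, at chr13:117220323-117220622 (plus strand) for Emb, chr16:52453032-52453331 (minus) for Alcam, chr16:33829415-33829714 (plus) for Itgb5 and chr7:128129300-128129599 (plus) for Itgax. Capitals mark the RUNX motif TGTGGT or TGCGGT and the GATA motif AGATAA or TGATAA, searched on both strands, which do not overlap where found.
Emb: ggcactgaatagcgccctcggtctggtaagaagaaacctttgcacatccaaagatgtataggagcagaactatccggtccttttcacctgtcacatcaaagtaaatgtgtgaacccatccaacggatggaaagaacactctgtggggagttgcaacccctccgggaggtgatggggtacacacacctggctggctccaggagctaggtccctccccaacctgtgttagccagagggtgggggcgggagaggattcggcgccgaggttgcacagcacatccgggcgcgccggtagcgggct
Alcam: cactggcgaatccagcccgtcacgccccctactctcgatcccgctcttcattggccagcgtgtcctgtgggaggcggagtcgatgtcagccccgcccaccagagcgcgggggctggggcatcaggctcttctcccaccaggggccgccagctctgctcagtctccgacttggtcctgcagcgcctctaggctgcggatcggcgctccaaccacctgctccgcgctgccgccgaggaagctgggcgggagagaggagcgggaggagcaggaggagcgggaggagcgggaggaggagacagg
Itgb5: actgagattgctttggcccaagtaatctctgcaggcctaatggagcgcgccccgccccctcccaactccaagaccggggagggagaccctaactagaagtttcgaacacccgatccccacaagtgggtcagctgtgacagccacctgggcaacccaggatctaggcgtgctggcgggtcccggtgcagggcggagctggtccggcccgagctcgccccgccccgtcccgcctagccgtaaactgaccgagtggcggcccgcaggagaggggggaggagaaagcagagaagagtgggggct
Itgax: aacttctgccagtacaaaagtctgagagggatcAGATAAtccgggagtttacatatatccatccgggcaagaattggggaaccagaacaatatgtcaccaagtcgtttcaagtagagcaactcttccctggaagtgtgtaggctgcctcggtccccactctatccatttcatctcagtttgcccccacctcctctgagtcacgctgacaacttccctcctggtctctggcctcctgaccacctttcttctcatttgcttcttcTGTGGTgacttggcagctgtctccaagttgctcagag
The Emb, Alcam and Itgb5 windows hold neither motif, and G and C make up 57.7%, 69.7% and 65.7% of their bases. In the Itgax window (50% G and C), AGATAA begins 217 bases before the start and TGTGGT begins at base 14 after it. Over the table, 22.4% of 32851 windows held a RUNX motif and 18.6% a GATA motif. Of the 24 members with a window, 4 held a RUNX motif (Itga3, Itga4, Itga8 and Itgax) and 2 a GATA motif (Cd44 and Itgax). These letters are a description of short windows and say nothing of binding elsewhere.

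Ncam1 (CD56), a homophilic adhesion molecule of neurons and, in human blood, NK cells, fell in GMP. It stood at 4.32 and 4.04 in KO GMP, against 6.62 and 7.15 in Het GMP, and between 4.17 and 4.74 on the LSK arrays. As with Itga1, the Het GMP arrays were the highest, here above the row median, and Ncam1 fell by 2.70 in KO GMP (SE 0.23, adjusted p = 0.000208, 6.52-fold lower). The LSK difference was -0.15 (SE 0.23, adjusted p = 0.798). Cdh1 (E-cadherin), the ligand of the αE integrin, was dim on all arrays: 3.17 and 3.44 in KO GMP, against 4.06 and 3.98 in Het GMP. It fell by 0.72 in GMP (SE 0.14, adjusted p = 0.0202), a call lost without Het GMP array 1 (adjusted p = 0.148) or 2 (0.0967) or KO GMP array 1 (0.157) and with all rows tested (0.0775), and it differed by 0.44 in LSK (SE 0.14, adjusted p = 0.12). The N-cadherin gene Cdh2 lay between 2.64 and 2.90 on the 8 arrays, with differences of 0.06 and -0.05.

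Pecam1 (CD31), a homophilic receptor of endothelium, platelets and leukocytes, stood at 7.36 and 6.85 in KO LSK, against 7.95 and 7.83 in Het LSK. In GMP it stood at 6.72 and 6.43 in KO, against 7.36 and 7.24 in Het. Both KO arrays were lower in each cell type, by amounts that met the threshold in LSK (-0.78, SE 0.18, adjusted p = 0.0313) and missed it in GMP (-0.72, SE 0.18, adjusted p = 0.0528). The GMP difference passed with the replicate number as a block (0.0226), which joins arrays of both genotypes, a pairing the labels do not state. It also passed with array medians subtracted (0.0285), dim rows left out (0.0314) and a mean-dependent variance prior (0.0304). With only the GMP arrays fitted (0.0262) or the mean of a gene's rows (0.0486), it passed as well. In LSK it no longer passed without Het LSK array 1 (adjusted p = 0.159) or 2 (0.108), KO LSK array 2 (-0.53, 0.112) or either Het GMP array (0.0579), with all rows tested (0.102) and with only the LSK arrays fitted (0.0811). Vcam1, the counter-receptor of α4 and α9 integrins, stood at 9.75 and 9.26 in KO GMP, against 8.22 and 8.25 in Het GMP. Its arrays did not overlap there, yet the difference of 1.27 (SE 0.37, adjusted p = 0.0906) did not pass in the fit over 8 arrays. It passed with only the GMP arrays fitted (adjusted p = 0.00699) and without either Het LSK array (0.0339); the Het LSK values, 4.74 and 5.88, were widely spread. The β2 ligands Icam1 and Icam2 differed by -0.24 and -0.07 in LSK. In GMP, Icam1 averaged 5.56 in KO and 5.57 in Het, and Icam2 differed by -0.08; none of these passed, with adjusted p of 0.537 or higher. Cd47, the SIRPα ligand and thrombospondin receptor, stood between 10.34 and 10.71 on the 8 arrays and was not called; its other row, with a mean of 10.24, was not called either.

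Selplg (PSGL-1), the main selectin ligand of leukocytes, fell in both cell types. It stood at 9.26 and 9.19 in KO LSK, against 9.90 and 9.88 in Het LSK, and at 8.97 and 8.63 in KO GMP, against 9.90 and 9.79 in Het GMP. All KO arrays lay below all Het arrays, and the Het levels were alike in LSK and GMP. Selplg fell by 1.05 in GMP (SE 0.14, adjusted p = 0.00203), a call that held with each array left out. Its LSK difference was -0.66 (SE 0.14, adjusted p = 0.0197). In LSK it no longer passed without Het LSK array 1 (adjusted p = 0.1) or 2 (0.0939) or KO LSK array 2 (0.0712) and with all rows tested (0.0615). Eng, a co-receptor of the TGF-β family carried by stem cells and endothelium, stood at 7.93 and 8.05 in KO GMP, against 6.71 and 6.93 in Het GMP. It rose by 1.17 in GMP (SE 0.16, adjusted p = 0.00279), while its LSK level was 8.78 ± 0.19 in KO and 8.57 ± 0.25 in Het, with overlapping arrays (0.21, SE 0.16, adjusted p = 0.54). Cd44, the hyaluronan receptor, differed by 0.23 in LSK and 0.17 in GMP (SE 0.13 each, adjusted p = 0.382 and 0.593).

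The tetraspanins moved apart. Cd63, which sits in late endosomes and granules and reaches the surface when granules are released, stood at 7.31 and 7.73 in KO LSK, against 9.51 and 9.42 in Het LSK. In GMP it stood at 8.56 and 8.40 in KO, against 10.23 and 10.39 in Het. Cd63 fell by 1.95 (SE 0.16, adjusted p = 0.000119) in LSK, and the GMP difference was -1.83 (SE 0.16, adjusted p = 0.000207), with no array deciding either call. Cd9, an abundant tetraspanin of platelets, rose in GMP: it stood at 8.17 and 8.61 in KO GMP, against 7.31 and 7.60 in Het GMP (0.93, SE 0.19, adjusted p = 0.0196). Cd151, the partner of laminin-binding integrins, stood at 6.50 and 6.62 in KO GMP, against 5.98 and 5.92 in Het GMP (0.61, SE 0.12, adjusted p = 0.0173). Both sets of KO GMP arrays lay above the Het GMP arrays, but neither call was firm. That of Cd9 was lost without Het GMP array 1 (adjusted p = 0.167) or 2 (0.0529) or KO GMP array 2 (0.153) and with all rows tested (0.0905). That of Cd151 was lost without Het GMP array 1 (0.0981) or 2 (0.12) or KO GMP array 1 (0.0669) or 2 (0.149) and with all rows tested (0.0574). In LSK the differences were 0.25 for Cd9 and 0.09 for Cd151, with adjusted p of 0.528 and 0.767.

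Markers of other blood lineages also moved. Over all rows, 3.02% were higher and 4.71% lower in KO LSK, and 3.45% and 2.57% in KO GMP. Of 8 megakaryocyte and platelet markers, 4 rose and 1 fell in KO LSK and 8 rose in KO GMP. Their mean level was 7.78 to 8.0 in KO LSK and 6.18 to 6.19 in Het LSK, and 8.50 to 8.77 in KO GMP and 5.10 to 5.46 in Het GMP. Of 7 B cell markers, 7 fell in KO LSK, to mean levels of 4.73 to 5.15, against 7.39 to 7.94 in Het LSK; 0 of them were called in GMP. Of 8 monocyte, macrophage and dendritic cell markers, 1 rose and 2 fell in KO LSK, with mean levels of 4.56 to 4.69, against 5.34 to 5.43 in Het LSK. In KO GMP 1 rose and 6 fell, with mean levels of 4.73 to 5.27, against 6.34 to 6.46 in Het GMP. Of 9 T and NK cell markers, 1 rose and 2 fell in KO LSK (4.30 to 4.35, against 5.03 to 5.10 in Het LSK). In KO GMP 1 of them rose and 0 fell. Of 9 endothelial and stromal markers, 1 rose and 2 fell in KO LSK and 2 rose and 1 fell in KO GMP. Of 7 mast cell and basophil markers, 2 rose and 1 fell in KO LSK and 1 rose and 2 fell in KO GMP. Of 5 erythroid markers, 1 rose and 2 fell in KO LSK and 2 rose and 1 fell in KO GMP. The part of such cells in the changes of Itga6, Itga9, Itga2, Cd9, Cd63, Emb, Alcam, Itgb7, Itgax, Itga1 and Ncam1 was not tested.

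The comparison of the KO effect between the cell types asked which adhesion genes responded differently in GMP and LSK. By the interaction term, 6 of the 36 members passed, 3 with a higher and 3 with a lower effect in GMP, beside 2.29% of all rows (1.69% higher, 0.601% lower). After each array's median was subtracted, 4 passed, 1 higher and 3 lower, beside 275 rows higher and 196 lower (368 and 131 without it). Ncam1 (-2.55, SE 0.33, adjusted p = 0.00627) and Itga1 (-2.32, SE 0.29, adjusted p = 0.00583) fell in GMP and differed little in LSK. Both were under the row median on all LSK arrays, with Ncam1 averaging 4.31 in KO LSK and 4.47 in Het LSK. Itga1 averaged 2.60 in KO LSK and 2.56 in Het LSK, a level from which a fall would be hard to see. Emb fell in both cell types and by less in GMP (2.33, SE 0.28, adjusted p = 0.00466). These 3 calls held with each array left out; that of Ncam1 was lost with all rows tested (adjusted p = 0.0514). Itga2 (1.36, adjusted p = 0.0286), Itgb5 (1.10, adjusted p = 0.0465) and Cdh1 (-1.16, adjusted p = 0.0232) passed less firmly: the arrays whose loss ended the call were 7 of 8 for Itga2 (all but Het GMP array 2; adjusted p up to 0.118), 7 of 8 for Itgb5 (all but Het LSK array 1; up to 0.166) and 4 of 8 for Cdh1 (Het LSK array 2, both Het GMP arrays and KO GMP array 1; up to 0.106). With all rows tested none of these 3 passed (0.129, 0.165 and 0.0991). Itgb5 had like levels in KO LSK (3.93) and KO GMP (3.91), and Cdh1 was under the row median on all 8 arrays. For Itga6, Itga9, Itgb2, Cd63 and Selplg the effect in GMP minus that in LSK was between -0.39 and 0.56, with adjusted p of 0.454 or higher. That of Alcam was 1.01 (SE 0.25, adjusted p = 0.0899) and passed with the replicate number as a block (0.0284), a pairing the labels do not state. Eng (0.95, adjusted p = 0.0778), Cd9 (0.68, 0.305) and Cd151 (0.52, 0.199), called in GMP alone, did not pass the interaction term. Nor did Itgax (1.10, 0.0538), Itgb7 (0.78, 0.248) and Pecam1 (0.06, 0.965), called in LSK alone. With a mean-dependent variance prior, Itgax (0.0497) and Eng (0.0402) passed. For the others, a call in a single cell type does not show a difference between cell types.

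GMP were then compared with LSK within each genotype. In KO, 5 of the 36 members were higher and 2 lower in GMP, and in Het 5 were higher and 9 lower; over all rows, 6.05% were called in KO (3.66% higher, 2.39% lower) and 17.5% in Het (7.9% higher, 9.6% lower). In Het the array medians themselves lay 0.16 lower in GMP (a shift of -0.16), and after they were subtracted 10 members were higher and 8 lower, beside 3203 rows higher and 1569 lower (1721 and 2092 without it). Vcam1 had the largest difference in both genotypes. It stood at 9.75 and 9.26 in KO GMP, against 5.35 and 4.55 in KO LSK, and at 8.22 and 8.25 in Het GMP, against 4.74 and 5.88 in Het LSK. The groups were far apart, with Vcam1 higher in GMP by 4.56 in KO (SE 0.37, adjusted p = 0.000166) and by 2.92 in Het (SE 0.37, adjusted p = 0.000697). Vcam1 is best known on stromal and endothelial cells and is also carried by macrophages; of the 9 endothelial and stromal markers, 1 was higher and 1 lower in KO GMP than in KO LSK, and 0 were higher and 3 lower in Het GMP than in Het LSK. Of the 8 monocyte, macrophage and dendritic cell markers, 1 was higher and 0 lower in KO GMP than in KO LSK, and 6 were higher and 1 lower in Het GMP than in Het LSK (list medians 0.07 and 1.49). The part of such cells in the Vcam1 difference was not tested.

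Among members that were higher in Het GMP than in Het LSK, Itga1 (2.63, SE 0.21, adjusted p = 5.42e-05), Ncam1 (2.42, SE 0.23, adjusted p = 0.000157) and Cdh1 (0.91, SE 0.14, adjusted p = 0.00256) were not called in KO, where they differed by 0.31, -0.13 and -0.25. Cd63 was higher in GMP in both genotypes, by 0.97 in KO (SE 0.16, adjusted p = 0.0077) and 0.85 in Het (SE 0.16, adjusted p = 0.00578). Emb (2.73, SE 0.19, adjusted p = 8.31e-05), Alcam (0.98, SE 0.18, adjusted p = 0.0134) and Cd9 (0.85, SE 0.19, adjusted p = 0.0314) were higher in KO GMP than in KO LSK, and in Het they differed by 0.40, -0.03 and 0.17. Since these comparisons share arrays with those of KO against Het, they are not independent of them.

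Itga9 and Eng were lower in GMP than in LSK in both genotypes. Itga9 differed by -1.22 in KO (SE 0.25, adjusted p = 0.0225) and -1.78 in Het (SE 0.25, adjusted p = 0.00129), and Eng by -0.79 in KO (SE 0.16, adjusted p = 0.0221) and -1.75 in Het (SE 0.16, adjusted p = 0.000126). Itgb5 (-1.13), Itgax (-1.09), Itgb7 (-1.08), Itga2 (-0.89), Icam1 (-0.86), Cd151 (-0.58) and Itga4 (-0.49) were lower in Het GMP, with adjusted p between 0.00146 and 0.0227, and were not called in KO. Subtracting array medians ended the Itga4 call (-0.34, adjusted p = 0.0743), as did testing all rows (0.0506), which also ended the KO calls of Itga9 (0.0997), Alcam (0.065), Eng (0.0839) and Cd9 (0.113). Of these 21 calls, 10 held with each array left out: Vcam1 and Emb in KO, and Itga1, Itga9, Itgax, Itgb5, Vcam1, Cdh1, Ncam1 and Eng in Het. The Itga9 call in KO was lost without KO LSK array 1 (adjusted p = 0.0983) or KO GMP array 1 (0.053) or 2 (0.157), that of Eng without KO LSK array 1 (0.0918) or KO GMP array 1 (0.139) or 2 (0.0882), that of Alcam without KO LSK array 1 (0.0531) or KO GMP array 1 (0.053) or 2 (0.105), and that of Cd63 without KO GMP array 1 (0.069). The Cd9 call in KO was lost without KO LSK array 1 (0.124), KO GMP array 2 (0.209) or either Het LSK array (0.0513). In Het, Itga2 was lost without Het LSK array 1 (0.051) or Het GMP array 1 (0.0623), Itgb7 without Het GMP array 1 (0.0533), Icam1 without Het LSK array 2 (0.0703) or Het GMP array 2 (0.0698), and Cd63 without Het GMP array 2 (0.0513). Cd151 was lost without Het LSK array 2 (0.0663) or Het GMP array 1 (0.0518) or 2 (0.0654), and Itga4 without Het LSK array 1 (0.0562) or 2 (0.135) or Het GMP array 1 (0.153) or 2 (0.0651).

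**Figure D3:**
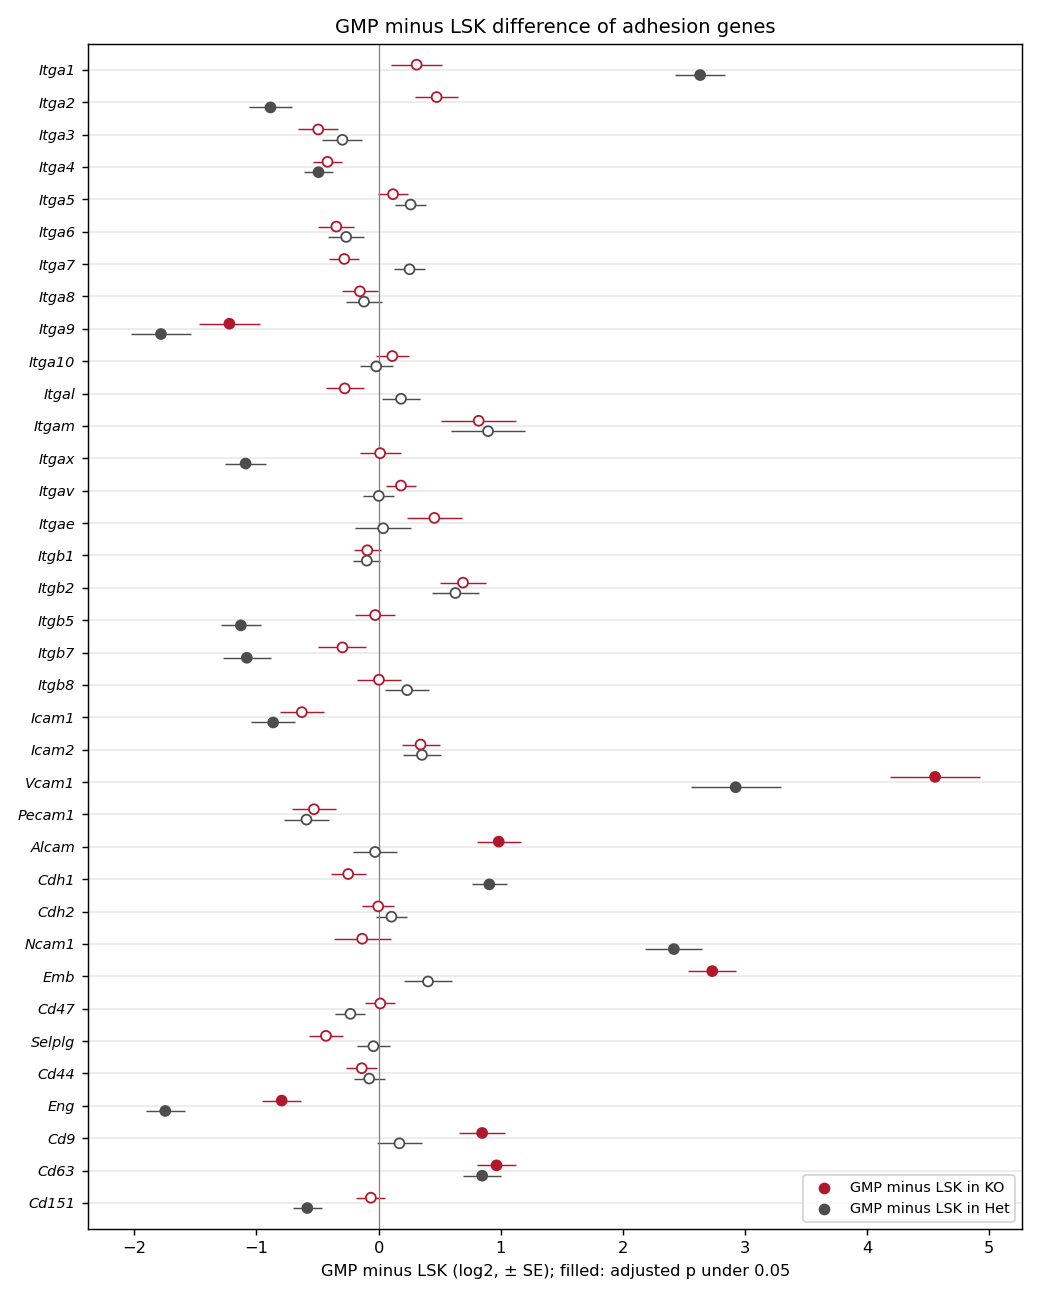
GMP minus LSK difference (x axis, log2, ± SE) of each of the 36 genes (y axis) in KO, the upper point of each pair, and in Het, the lower point; filled points passed at an adjusted p under 0.05. Vcam1 is higher in GMP in both genotypes, Itga1 and Ncam1 in Het, and Emb in KO.

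Probes differ in brightness, so the levels of different members are not ranked and are set against the row median alone. Above the row median stood 21 members in KO LSK, 25 in Het LSK, 23 in KO GMP and 23 in Het GMP. On all 8 arrays, 19 members were above it and 9 below it (Itga3, Itga7, Itga8, Itga10, Itgax, Itgae, Itgb8, Cdh1 and Cdh2). In all, 15 of the 36 were called in none of the 5 comparisons, a count for which no share over all genes was computed.

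Genes around these receptors were read from lists chosen for their roles. The shares over all rows to set beside the counts were 3.02% higher and 4.71% lower in KO LSK, and 3.45% and 2.57% in KO GMP. No list was tested as a set. Of 22 other integrin chains and adhesion receptors, 4 rose and 1 fell in KO LSK and 7 rose and 1 fell in KO GMP, with list medians of 0.04 and 0.06. Itga2b and Itgb3, the chains of the platelet fibrinogen receptor, rose together. Itga2b averaged 9.49 ± 0.13 in KO LSK and 6.81 ± 0.12 in Het LSK, and 9.63 ± 0.21 in KO GMP and 5.35 ± 0.40 in Het GMP. Itgb3 averaged 7.69 ± 0.26 in KO LSK and 5.83 ± 0.23 in Het LSK (1.87, SE 0.27, adjusted p = 0.00327), and 8.60 ± 0.42 in KO GMP and 5.16 ± 0.51 in Het GMP (3.45, SE 0.27, adjusted p = 0.000138). The junction genes Jam3 and Esam, found on endothelium and platelets, also rose in both: Jam3 by 3.85 in LSK and 2.83 in GMP, and Esam by 1.51 and 2.67. These 8 calls held with each array left out.

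Of 29 genes that activate integrins or link them to actin, 4 rose and 3 fell in KO LSK and 4 rose and 0 fell in KO GMP (medians 0.06 and 0.13). Fyb, an adaptor of inside-out integrin signalling in T cells and platelets, rose by 1.16 in LSK (SE 0.14, adjusted p = 0.00126) and by 2.31 in GMP (SE 0.14, adjusted p = 5.16e-05). Rap1b, the small GTPase of platelet integrin activation, rose by 0.85 (adjusted p = 0.00335) and 1.14 (adjusted p = 0.000744). Fermt3, the kindlin of blood cells, rose by 0.53 in LSK (adjusted p = 0.0465) and 0.72 in GMP (adjusted p = 0.0145); the LSK call was lost without any 1 of 7 arrays (all but KO LSK array 2; adjusted p up to 0.232), and the GMP call without any of the 4 GMP arrays (up to 0.119). Zyx, a focal adhesion protein, rose by 0.94 in GMP (adjusted p = 0.00757), lost without Het GMP array 1 (0.0651) or 2 (0.0588) or KO GMP array 2 (0.073).

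Of 21 extracellular ligands of integrins and CD44, 3 rose and 0 fell in KO LSK and 2 rose and 0 fell in KO GMP (medians 0.02 and -0.01). Thbs1, thrombospondin of platelet granules and a CD47 ligand, averaged 8.29 ± 0.21 in KO GMP and 4.65 ± 0.15 in Het GMP (3.64, SE 0.16, adjusted p = 1.59e-05). In LSK it averaged 5.19 ± 0.00 in KO and 4.42 ± 0.24 in Het (0.77, adjusted p = 0.0185), a call lost without Het LSK array 1 (0.127) or KO LSK array 1 (0.0555) or 2 (0.0604). Vwf rose by 1.14 in GMP (adjusted p = 0.0142), lost without Het GMP array 1 (0.0824) or 2 (0.103), and differed by -0.76 in LSK (adjusted p = 0.0722), which passed without either KO GMP array (0.00878). The basement membrane genes Col4a1 (0.85, adjusted p = 0.01) and Nid1 (0.51, adjusted p = 0.0403) rose in LSK; Col4a1 was lost without Het LSK array 2 (0.0786), and Nid1 without any 1 of the 8 arrays (up to 0.182).

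Of 10 genes that build selectin ligands, 2 rose and 0 fell in KO LSK and 2 rose and 2 fell in KO GMP (medians -0.10 and 0.02). The fucosyltransferase genes Fut7 and Fut4, which complete the selectin-binding sugar on PSGL-1, fell in GMP. Fut7 averaged 4.66 ± 0.12 in KO GMP and 5.76 ± 0.03 in Het GMP (-1.10, SE 0.14, adjusted p = 0.00166). Fut4 averaged 5.29 ± 0.14 in KO GMP and 6.38 ± 0.26 in Het GMP (-1.09, SE 0.15, adjusted p = 0.00238). In LSK they differed by -0.08 and -0.49, with adjusted p of 0.822 and 0.0909. The sialyltransferase gene St3gal6 rose by 1.72 in LSK (adjusted p = 0.00125) and by 3.33 in GMP (adjusted p = 5.46e-05). Tpst2, a tyrosine sulfotransferase, rose by 0.83 in LSK (adjusted p = 0.01; 0.0713 without Het LSK array 1) and by 0.96 in GMP (adjusted p = 0.00542; 0.0521 without Het GMP array 1 and 0.0594 without KO GMP array 2).

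Of 13 other tetraspanins, 1 rose and 4 fell in KO LSK and 3 rose and 2 fell in KO GMP (medians -0.34 and 0.06). Tspan13 fell by 1.10 in LSK (SE 0.12, adjusted p = 0.000538) and rose by 1.09 in GMP (SE 0.12, adjusted p = 0.000694). It averaged 8.59 ± 0.06 in KO LSK and 9.68 ± 0.12 in Het LSK, while it averaged 7.49 ± 0.04 in KO GMP and 6.40 ± 0.04 in Het GMP. Cd82 fell by 1.48 in LSK (SE 0.20, adjusted p = 0.00188) and differed by -0.17 in GMP (adjusted p = 0.75). Tspan14 rose by 0.84 in LSK (adjusted p = 0.0259), lost without Het LSK array 1 (0.139) or 2 (0.0999) or KO LSK array 1 (0.0747). Tspan2 fell by 0.84 in LSK (adjusted p = 0.00872; 0.0684 without Het LSK array 1) and fell by 0.65 in GMP (adjusted p = 0.0366), a call lost without any of the 4 GMP arrays (up to 0.259).

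**Figure D4:**
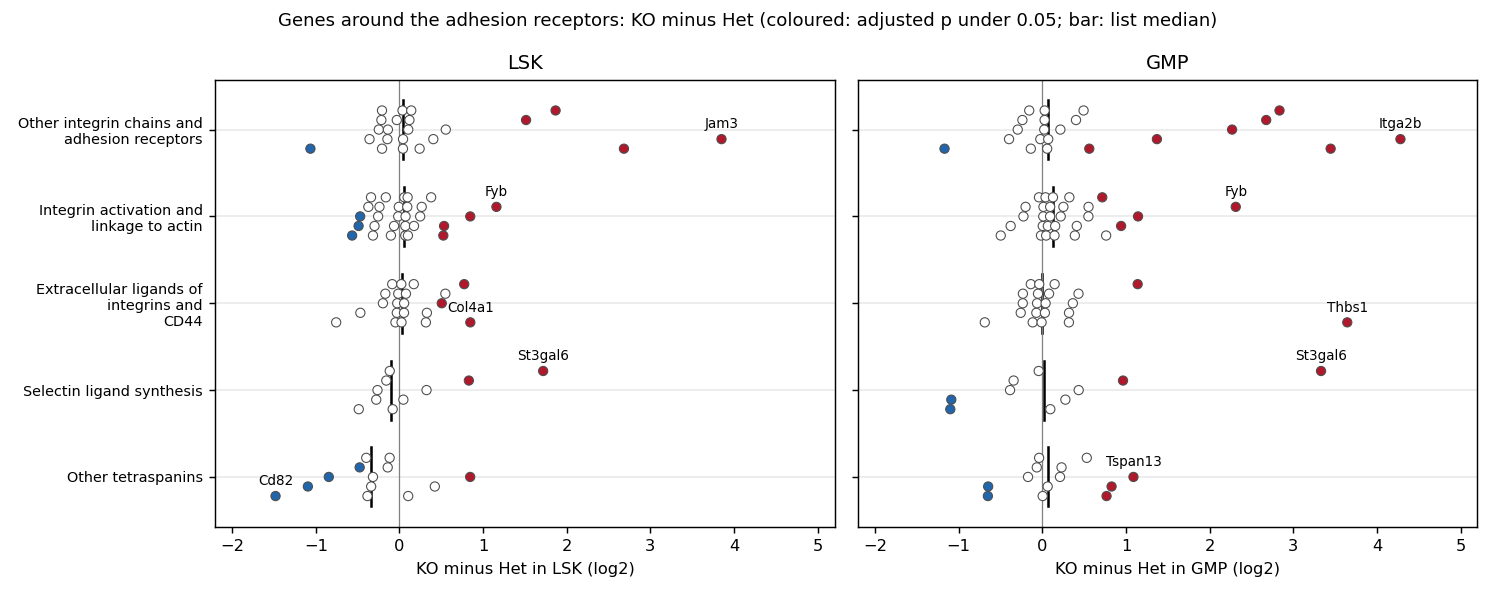
KO minus Het difference (x axis, log2) of every measured gene of the 5 lists (y axis) in LSK on the left and in GMP on the right; red and blue points rose and fell at an adjusted p under 0.05, open points did not pass, and the bar is the list median. List medians lie near 0, between -0.34 and 0.13, while single genes such as Itga2b, Jam3, Thbs1 and St3gal6 lie far to the right.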

How the data were processed

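RNA was amplified, labelled with biotin and hybridised to Mouse Gene 1.0 ST arrays, per the labels' protocols and the series' design text. The deposited table is on the log2 scale and comes from RMA, per the submitters' processing notes. The software version and the build were not given in the sources used here. RMA brings arrays to nearly the same distribution, which hides a change common to all transcripts. No deposited column was left unused (0).

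The table held 35556 rows, of which 21789 carry exactly 1 gene symbol in the platform annotation (19938 genes); 1621 carry several and 12146 none, and these entered only the test of all rows. The test was limma's (limma 3.58.1 under R 4.3.3), fitting the 4 group means over all 8 arrays with lmFit (4 residual and 4.83 prior degrees of freedom), eBayes, two-sided, with Benjamini-Hochberg adjustment over the 21789 rows of each comparison. The test was also run on simulated arrays for KO against Het in LSK over 21789 rows. It called 63 of 100 rows changed by 1 and 96 of 100 changed by 2 on the log2 scale, and 6 unchanged rows. Spreads were shuffled among rows there, which unlinks spread from level, so these counts do not give the power for the members. With 2 arrays a group, 0.333 is the smallest p an exact two-sided permutation test can give, so p-values are limma's. They set each difference against a spread between arrays that is pooled over the 4 groups and drawn towards a prior from all rows.

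All 36 members were reported; array values were printed for those called in KO against Het, and up to 4 called genes were named per companion list. The members, lists and motifs were chosen with earlier results of these data known. Deviations of same-numbered arrays from their group means correlated at 0.18 between KO GMP and KO LSK and 0.13 between Het GMP and Het LSK, and at -0.14 to -0.03 between groups of different genotype. The numbers are not stated to mark an animal, so the main fit has no block. Number of arrays limits the precision. Alternatives were array medians subtracted, all rows tested, dim rows left out, another variance prior, only the groups compared, replicate blocks, the mean of a gene's rows, a minimum size of 1 and each array left out.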

Additional observations from a re-analysis of the deposited data

Results flagged for a closer look

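The effect of KO against Het differed between GMP and LSK, by the interaction term of limma, in 6 of the 36 genes, beside 2.29% of all rows. The effect in GMP minus that in LSK was -2.32 for Itga1 and -2.55 for Ncam1, which fell in GMP and differed little in LSK. It was 2.33 for Emb, which fell in both cell types and by less in GMP. It was 1.36 for Itga2, which rose in GMP and differed by -0.26 in LSK, 1.10 for Itgb5, which fell by less in GMP, and -1.16 for Cdh1, which fell in GMP and differed by 0.44 in LSK. Itgb5 averaged 3.93 in KO LSK and 3.91 in KO GMP, against 5.84 in Het LSK and 4.71 in Het GMP. Its KO levels were thus alike and dim, and its Het levels differed. Itga1 and Ncam1 were under the row median on all LSK arrays. A fall of Itga1 from its Het LSK mean of 2.56 would be hard to see, while Ncam1 averaged 4.47 there.

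The Itga2 result (adjusted p = 0.0286) did not pass without Het LSK array 1 (0.0898) or 2 (0.0956), KO LSK array 1 (0.053) or 2 (0.0512), Het GMP array 1 (0.0752), or KO GMP array 1 (0.0559) or 2 (0.118). The Itgb5 result (adjusted p = 0.0465) did not pass without Het LSK array 2 (0.122), KO LSK array 1 (0.0756) or 2 (0.0737), Het GMP array 1 (0.166) or 2 (0.146), or KO GMP array 1 (0.162) or 2 (0.0906). The Cdh1 result (adjusted p = 0.0232) did not pass without Het LSK array 2 (0.095), Het GMP array 1 (0.106) or 2 (0.0822), or KO GMP array 1 (0.0893).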

How the results depend on the processing

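Of 2892 values of single members under an alternative, 2709 kept their side of the threshold, 123 no longer passed and 60 newly passed. No value that passed in either setting changed sign, while uncalled ones did, such as Vcam1 in LSK (-0.93 to 0.21 with arrays left out). Where a count moved by over 1.5 times, the cause was not tested beyond what the alternative itself sets. With all 35556 rows tested, 7 members passed for KO against Het in LSK (11 in the main test), 2 for the difference between cell types (6; 182 of all rows, 499) and 3 for GMP against LSK in KO (7; 756, 1318), and 784 of all rows (1312) for KO against Het in GMP. With only the groups compared in the fit, 1071 of all rows passed for KO against Het in LSK (1684) and 691 for GMP against LSK in KO. With dim rows left out, only 24 members were tested, and 2 passed for the difference between cell types (Itga2 and Emb). Itga1, Itgb5, Cdh1 and Ncam1, called in the main test, were among the dim rows left out. Their absence is thus set by the filter and is no lost call. With a minimum size of 1, counts were 7 members and 731 rows for KO against Het in LSK, 620 rows for KO against Het in GMP, 3 members and 520 rows for GMP against LSK in KO, and 8 members and 1348 rows for GMP against LSK in Het (14 and 3813).

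With each array left out, members called ranged from 7 to 12 for KO against Het in LSK, 10 to 17 in GMP, 3 to 5 for the difference between cell types, 3 to 8 for GMP against LSK in KO and 10 to 17 in Het. All rows called ranged from 994 to 1614, 634 to 1586, 223 to 705, 579 to 1539 and 2078 to 4486 in the same order. Where this leaves 1 array in a group, that array is assumed to vary like the others.

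With the replicate number as a block, 11, 16, 6, 7 and 15 members passed in the same order, and 1570, 1224, 480, 1216 and 3602 rows. This block ended the Itgb5 call for the difference between cell types (adjusted p = 0.0617) and added Alcam there (0.0284) and Pecam1 in 2 comparisons (KO against Het in GMP, 0.0226, and GMP against LSK in Het, 0.0243). With the replicate number as a block within each genotype, 8 members passed for the difference between cell types, 9 for GMP against LSK in KO and 17 in Het. It added Itgax (0.0375) and Alcam (0.0321) to the difference between cell types, Itgb2 (0.0462) and Pecam1 (0.0498) in KO, and Itgam (0.0379), Itgb2 (0.0316) and Pecam1 (0.0155) in Het, and ended no call. The numbers are not stated to pair arrays, and deviations of same-numbered arrays correlated at 0.18 between KO GMP and KO LSK, 0.13 between Het GMP and Het LSK, -0.14 between KO LSK and Het LSK and -0.03 between KO GMP and Het GMP. The number of arrays limits all of these values, and dim genes have no detection call.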
